A study of Homo sapiens with 24 samples.

Results

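The 42 genes described here are the subunits of the transcription factor NF-kB, the proteins that hold it in check, the adaptors and survival proteins that surround it, and cytokine, chemokine, surface and effector genes that it is known to induce. They were taken by gene symbol from the authors' table of normalized counts, which lists 25082 genes, and 41 of them are in it (CCL4 was not analysed here). A filter that kept genes with a value of at least 10 in at least 3 libraries passed 39 of the 41, leaving out CCL2 and CCL3. The study measured poly(A) RNA of SET2 cells, an established human megakaryoblastic leukaemia line that carries an activating JAK2 mutation and is used as a model of JAK2-driven myeloproliferative neoplasm. There were 24 libraries in 8 groups of 3. Naive cells had no exposure. Each of 4 lines had been made persistent to 1 type I JAK inhibitor and was kept in it: BMS911543, CYT387 (momelotinib), INC424 (ruxolitinib) or SAR302503 (fedratinib). The other 3 groups were naive cells given DMSO, the vehicle, for 4 h, INC424 for 4 h, or INC424 for 48 h. No vehicle group at 48 h was analysed here, so INC424 and time in culture cannot be told apart at 48 h. All groups are the same parental line in RPMI1640 with 20% FCS, and the labels give no inhibitor doses. They do not say whether the 3 libraries of a group came from separate cultures. Each p-value therefore measures only the spread between libraries within groups, which the main fit pools over all 8 groups.

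NF-kB is a family of dimers built from RELA, RELB, REL and the processed products of NFKB1 and NFKB2. In the canonical pathway, a receptor signal activates the IKK kinase complex, which marks the inhibitor IkBα (NFKBIA) for destruction and frees RELA dimers to enter the nucleus. In the non-canonical pathway, the kinase NIK (MAP3K14) builds up when TRAF2, TRAF3 and the cIAP ligases (BIRC2, BIRC3) no longer degrade it, and NFKB2 is processed to pair with RELB. Many target genes, among them NFKBIA, TNFAIP3 and BIRC3, encode parts of the pathway itself and act back on it, and in myeloid cells the same factors drive inflammatory cytokines and chemokines. JAK inhibitors of type I bind the active form of the kinase and block STAT signalling, and some genes of the list, such as BCL3, are also known as STAT targets.

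Some members whose levels changed hold κB motifs close to the transcription start, and others hold none in the window searched. The 7 stretches shown were chosen among members with a match. They come from RefSeq's GRCh38.p14 promoter windows and are given 5′ to 3′ on the gene's own strand, with capitals marking the bases of each match to the κB consensus, searched on both strands. The first 3 are the GRO chemokine genes, of which CXCL2 and CXCL3 were called higher in the CYT387 line.

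CXCL1 (chr4:73869293-73869392, + strand): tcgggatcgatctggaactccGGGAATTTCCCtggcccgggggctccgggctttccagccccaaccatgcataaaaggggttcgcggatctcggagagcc
CXCL2 (chr4:74099196-74099295, - strand): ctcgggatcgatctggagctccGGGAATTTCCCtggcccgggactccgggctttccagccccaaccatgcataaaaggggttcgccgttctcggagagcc
CXCL3 (chr4:74038690-74038789, - strand): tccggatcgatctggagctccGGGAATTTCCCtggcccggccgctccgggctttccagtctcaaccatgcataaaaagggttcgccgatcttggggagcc
TNFAIP3 (chr6:137867159-137867258, + strand): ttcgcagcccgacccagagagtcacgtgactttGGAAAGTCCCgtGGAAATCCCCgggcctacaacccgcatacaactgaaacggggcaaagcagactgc
BIRC3 (chr11:102317264-102317363, + strand): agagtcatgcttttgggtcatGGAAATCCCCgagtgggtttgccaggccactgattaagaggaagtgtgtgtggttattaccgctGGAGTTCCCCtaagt
NFKB2 (chr10:102394448-102394547, + strand): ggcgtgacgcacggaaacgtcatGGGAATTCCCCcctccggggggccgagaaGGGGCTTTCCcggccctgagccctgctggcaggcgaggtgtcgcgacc
NFKBIZ (chr3:101827740-101827819, + strand): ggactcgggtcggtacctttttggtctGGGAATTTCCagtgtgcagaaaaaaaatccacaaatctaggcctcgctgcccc

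The CXCL1, CXCL2, CXCL3 and TNFAIP3 stretches end at the base before the start. The BIRC3, NFKB2 and NFKBIZ stretches lie further upstream, within the 250 bases before a start. Lined up on the match with no gaps, CXCL1 and CXCL3 are identical at 90 of 100 positions, CXCL1 and CXCL2 at 62 of 99, and CXCL2 and CXCL3 at 58 of 99. With insertions and deletions allowed, 10 single-base edits separate CXCL1 from CXCL3, 6 separate CXCL1 from CXCL2, and 11 separate CXCL2 from CXCL3. The 11 capital letters are the same in all 3 chemokine genes. The transcribed sequences of these related genes were not compared here, and reads that they share could be assigned to the wrong copy, so the split of counts among them may be uncertain. TNFAIP3, BIRC3 and NFKB2 each hold 2 runs of capitals in the stretch shown. Of the 36 members with a RefSeq window, 20 (55.6%) held at least 1 κB match in the 250 bases before to 50 bases after a start, against 7.09% of 27305 genes. Members have more windows per gene, and by window the shares were 41.7% of 60 against 5.91% of 35116. The members were listed as parts and known targets of the pathway, so an excess was built into the choice and tests nothing. The 16 members with no match in their windows included TNF, PTGS2, IL1B, PLAU, ICAM1, TNFAIP2 and GADD45B, which says only that these letters are not there. The motif TTCNNNGAA, the core bound by STAT factors, was in 7 of 36 (19.4%), against 9.38% of all genes. By window the shares were 15% and 7.66%. RELB, NFKBIE, RIPK2, CCL2, CCL4 and CD40 had no window. A match is a string of letters, and no binding was measured here.

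Library totals, recovered as whole reads from the normalized values, ran from 21770721 to 36160750. The second library of the CYT387 line stood furthest apart: genes of stroma, vessels and macrophages took 0.768% of its reads against 0.00664% to 0.0262% in the other 23. Squamous epithelial genes took 0.448% of its reads, 0.0987% in SAR302503 library 3, 0.0280% in INC424 line library 2, 0.0205% in 48 h library 3 and at most 0.0169% in the other 20. The second CYT387 library lay at more than 2 times the highest of the other 23 libraries in 14 of the 41 members. The share of all genes that did so was not counted, so this is not read as particular to the members. On log2 values over all genes, its correlation with libraries 1 and 3 was 0.824 and 0.811, against 0.976 between those 2. Library 2 was left out of every main fit below, so CYT387 values rest on libraries 1 and 3, and a CYT387 call required both to lie beyond all 3 naive libraries. Results that include it are given beside the ones it changes. In comparisons without the CYT387 line it alters the pooled spread and the genes tested, not the log2 differences. Its part in the CYT387 comparisons was not tested. Libraries 1 and 3 held the highest shares of the stroma, vessel and macrophage list among the other 23 (0.0262% and 0.0241%, against 0.0129% to 0.0155% in naive cells), with reads in 8 of its 9 genes in the table. In those libraries VWF was at 2886 and 2318, against 343 to 369 in naive cells, and FN1 at 141 and 140, while CD163 was at 0. COL1A1 and CD14 were also above naive cells. SPARC, at 4472 and 4294, lay beside or within the naive range (3344 to 4321), and TGFBI and COL1A2 lay within it. COL3A1 was lower, at 14.2 and 15.9 against 24.5 to 31.3 in naive cells. The part of these RNAs in the CYT387 results was not tested. In RNA from a whole culture, fewer cells expressing a gene and less RNA per cell cannot be told apart.

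Members were called changed where the adjusted p of a limma trend fit on log2(normalized count + 1) over 19882 genes was under 0.05 (two-sided, Benjamini-Hochberg). All fold changes are on that scale, which understates changes of genes with low counts. Each persistent line had members on both sides of the naive cells. The CYT387 line had 13 of 39 members higher and 3 lower, while 9.53% of all genes tested were higher and 8.81% lower (18.3% in either direction). The INC424 line had 9 higher and 7 lower, with 15.7% and 17.5% of all genes (33.3%). The SAR302503 line had 9 higher and 5 lower, with 14.6% and 16.1% (30.6%). The BMS911543 line had 6 higher and 11 lower, with 16.1% and 19.3% (35.4%). The higher counts include CXCL1 for CYT387 and LTA for INC424, SAR302503 and BMS911543, whose tests are not used, as explained below. The median log2 difference of the members was 0.23 in the CYT387 line, 0.01 in the INC424 line, 0.11 in the SAR302503 line and 0.00 in the BMS911543 line. The median of all genes tested lay between -0.01 and 0.03 in these 4 comparisons. Against DMSO, 4 h of INC424 lowered 11 members and raised 4, with a median of -0.23, while 6.84% of all genes fell and 9.84% rose (16.7% in all). At 48 h, 11 members were lower and 7 higher, with a median of -0.13 (-0.01 and 0.00 for all genes at 4 h and 48 h), where 21.5% and 23.1% of all genes were (44.5% in all). No member was higher in all 4 lines. CFLAR was lower in all 4, and 6 members (RELA, REL, NFKBIB, TNIP2, LTB and EBI3) passed the test in none. The shares of all genes called in all 4 lines or in none were not counted. These counts are therefore not read as particular to the members. With all 24 libraries in the fit, the number of members called was 12 for the BMS911543 line (24.6% of all genes), 16 for CYT387 (21.1%), 9 for INC424 (22.5%) and 7 for SAR302503 (19.3%). The SAR302503 count was also 3 with only that line and naive cells in the fit (15.5% of all genes) and 9 without naive library 1 (30.0%), and the CYT387 count was 10 without library 1 of that line (9.75%), which leaves it 1 library. A fit without the libraries that were run again or on 2 lanes (9 of 24) called 9 members in the SAR302503 line (25.3% of all genes) and 3 at 4 h of INC424 (4.15%). It leaves 1 library each of SAR302503, DMSO and 4 h of INC424, so the other groups give its spread. Without the 4 libraries richest in squamous RNA, the calls were 18 for BMS911543 (41.1% of all genes), 19 for CYT387 (24.8%), 19 for INC424 (36.1%) and 13 for SAR302503 (35.2%). The SAR302503 calls of CFLAR, TRAF2 and TNF (adjusted p = 0.0688, 0.201 and 0.173) were lost there.

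**Figure D1:**
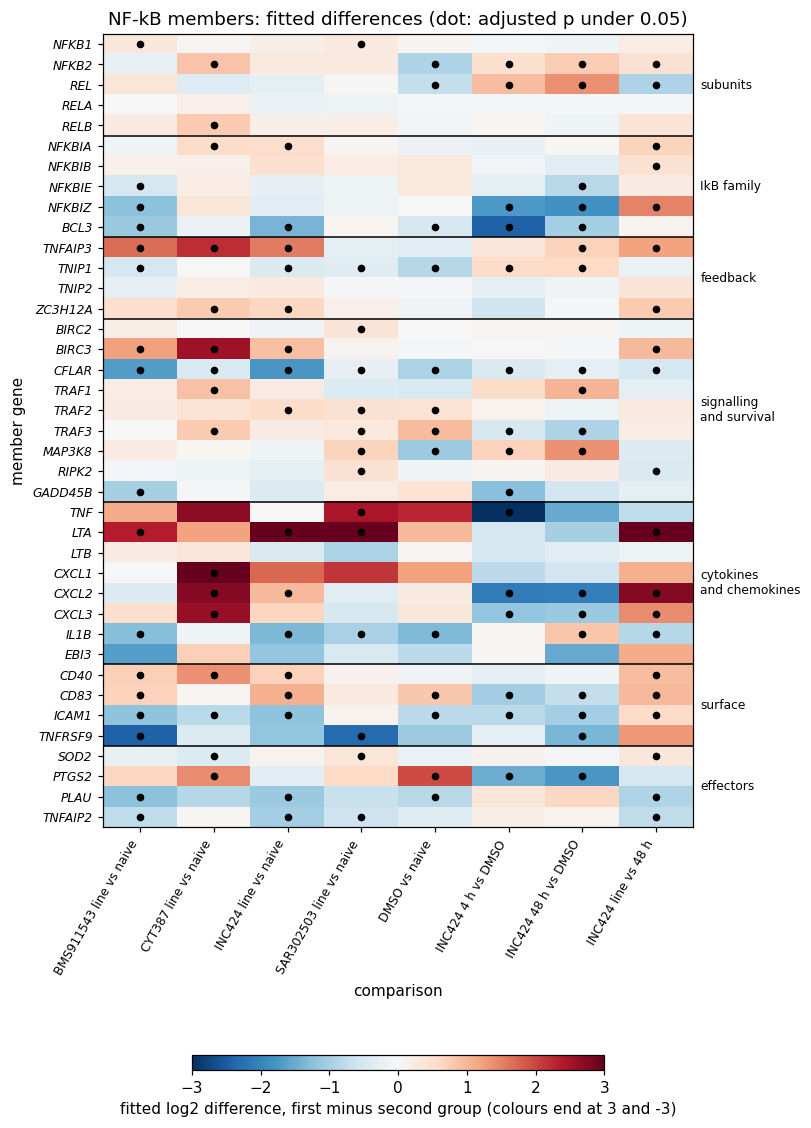
Log2 difference of each of the 39 tested members (rows, by role) in 8 comparisons (columns): the 4 persistent lines and DMSO against naive cells, INC424 for 4 h and 48 h against DMSO, and the INC424 line against 48 h. Dots mark calls. TNFAIP3, BIRC3 and CD40 are higher in the BMS911543, CYT387 and INC424 lines, and CFLAR is lower in all 4 lines.

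Among the subunit genes, NFKB2 and RELB, which encode the partners of the non-canonical dimer, passed the test in the CYT387 line and in none of the other 3 lines. NFKB2 was 1375, 1736 and 1639.8 in naive libraries 1 to 3 and 2869 and 2824 in CYT387 libraries 1 and 3 (log2 0.85 ± 0.15 (SE), adjusted p = 0.00016). Library 2 of that line, at 2621, lay beside the other 2. The BMS911543 libraries held 1364, 1485 and 1238, the INC424 line 1915, 1712 and 2194 and the SAR302503 line 1833, 1691 and 2335, which all overlapped the naive range. Set against the other lines directly, NFKB2 in the CYT387 line was higher than in the BMS911543 line (log2 -1.07 for BMS911543 minus CYT387, adjusted p = 4.8e-06), the INC424 line (log2 0.56, adjusted p = 0.0062) and the SAR302503 line (log2 0.56, adjusted p = 0.0063). RELB was 462, 549.9 and 532 in naive cells and 932 and 850.0 in CYT387 libraries 1 and 3 (log2 0.79 ± 0.18 (SE), adjusted p = 0.0027), and 1353 in library 2. Its call was lost without library 1 of CYT387 (adjusted p = 0.0505). The other 3 lines held RELB between 433 and 735, and RELB was lower in each of them than in the CYT387 line in the direct contrasts (adjusted p = 0.028, 0.013 and 0.016).

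NFKB1, whose product p105 is cut to p50, was slightly higher in 2 lines. It was 2723, 2387 and 2437 in naive cells, 3325, 3007 and 3247 in the BMS911543 line (log2 0.35 ± 0.09 (SE), adjusted p = 0.0037) and 3323, 3017 and 2959 in the SAR302503 line (log2 0.30 ± 0.09 (SE), adjusted p = 0.012), with no overlap in either. The SAR302503 call was lost without library 1 of SAR302503 or library 2 of naive cells (adjusted p = 0.0632 and 0.0545). RELA, the main activating subunit, ranged from 2357 to 3855 over all 24 libraries and passed the test in none of the comparisons with naive cells or DMSO. Its 95% intervals against naive cells were -0.21 to 0.24 in the BMS911543 line, -0.11 to 0.40 in the CYT387 line, -0.40 to 0.06 in the INC424 line and -0.39 to 0.06 in the SAR302503 line.

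On exposure to INC424, REL and NFKB2 rose relative to DMSO. REL, a subunit prominent in lymphoid cells, was 114, 158 and 80.7 with DMSO, 197, 196 and 266 at 4 h (log2 0.93 ± 0.25 (SE), adjusted p = 0.011) and 271, 297 and 322 at 48 h (log2 1.38 ± 0.25 (SE), adjusted p = 8.9e-05). NFKB2 was 711, 850.1 and 949.7 with DMSO, 1224, 1208 and 1036 at 4 h (log2 0.47 ± 0.13 (SE), adjusted p = 0.014) and 1464, 1370.5 and 1417 at 48 h (log2 0.77 ± 0.13 (SE), adjusted p = 4.1e-05). In both genes every INC424 library lay above every DMSO library. The 4 h call for REL was lost without library 3 of DMSO or library 3 of INC424 at 4 h (adjusted p = 0.0888 and 0.0698), and that for NFKB2 without library 1 of DMSO or library 1 or 2 of INC424 at 4 h (adjusted p = 0.104, 0.0602 and 0.0608). Both genes were also lower with DMSO than in naive cells (log2 -0.72 and -0.92), and their 48 h levels lay above naive cells for REL and near them for NFKB2, with no vehicle group at 48 h analysed here.

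Among the inhibitors of the IkB family, NFKBIA was higher in 2 lines, while the atypical members BCL3 and NFKBIZ, which work in the nucleus, fell sharply with INC424 and were low in some of the lines. NFKBIA was 713, 608 and 633 in naive cells, 997 and 914 in CYT387 libraries 1 and 3 (log2 0.55 ± 0.17 (SE), adjusted p = 0.025) and 874, 834 and 1132 in the INC424 line (log2 0.53 ± 0.15 (SE), adjusted p = 0.0091). Neither line overlapped the naive libraries. The CYT387 call was lost without library 1 or 3 of CYT387 or library 2 or 3 of naive cells (adjusted p = 0.184, 0.08, 0.0709 and 0.0574), and the INC424 call without library 3 of the INC424 line (adjusted p = 0.0776). CYT387 library 2 held 4184, and with it in the fit the CYT387 difference was 1.26 (adjusted p = 0.012), while the INC424 line no longer passed (adjusted p = 0.3). The BMS911543 line held 670.2, 546 and 578 and the SAR302503 line 609, 565 and 941, both overlapping naive cells. NFKBIA was 576, 550.3 and 604 with DMSO, 532, 484 and 460.0 at 4 h and 600.1, 595 and 577 at 48 h of INC424, and neither time passed the test.

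BCL3, an IkB-related coactivator of p50 and p52 dimers, showed the steepest fall of any tested member with 4 h of INC424 apart from TNF, whose counts are low. It was 871, 1045 and 1199.5 with DMSO, 218, 196 and 160.3 at 4 h and 464, 489 and 579 at 48 h. The 4 h difference was log2 -2.43 ± 0.17 (SE), adjusted p = 1e-09, which is 0.185 of the DMSO level, and the 48 h difference was log2 -1.02 ± 0.17 (SE), adjusted p = 4.3e-05. The 48 h libraries all lay above the 4 h libraries and below the DMSO libraries, and 48 h against 4 h was log2 1.42, adjusted p = 1.9e-06. In naive cells BCL3 was 1279.9, 1478 and 1532, in the INC424 line 611, 468 and 567 (log2 -1.38 ± 0.17 (SE), adjusted p = 8.7e-07) and in the BMS911543 line 703, 650.3 and 612 (log2 -1.12 ± 0.17 (SE), adjusted p = 1.6e-05). The CYT387 line's libraries 1 and 3, at 1227 and 1315, and the SAR302503 line, at 1416, 1118 and 2056, overlapped naive cells, and library 2 of CYT387 held 1757. The direct contrasts between the lines separated the pair with low BCL3 from the other pair: INC424 minus SAR302503 was -1.44 (adjusted p = 1.1e-06) and CYT387 minus INC424 was 1.22 (adjusted p = 3.9e-05).

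NFKBIZ (IkBζ), needed for a secondary wave of inflammatory targets, was 830.3, 882 and 852 with DMSO, 216, 267 and 293 at 4 h (log2 -1.73 ± 0.16 (SE), adjusted p = 4.2e-08) and 190.3, 299.9 and 250.3 at 48 h (log2 -1.81 ± 0.16 (SE), adjusted p = 3.1e-09). It stayed low between 4 h and 48 h. Naive cells held 679, 938 and 957 and the BMS911543 line 373, 352 and 362, the only line that passed the test (log2 -1.22 ± 0.16 (SE), adjusted p = 1.4e-06). The INC424 line, still in its inhibitor, held 682, 728 and 636, which was above the 48 h libraries (log2 1.48, adjusted p = 6.6e-08) and overlapped naive cells. CYT387 libraries 1 and 3 were at 1099 and 1067, the SAR302503 line was at 771, 868 and 648, and CYT387 library 2 was at 598.

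NFKBIE (IkBε) was 481, 397 and 432 in naive cells and 297, 324 and 281 in the BMS911543 line (log2 -0.53 ± 0.15 (SE), adjusted p = 0.0085), with no overlap. It was 510.4, 523 and 598 with DMSO and 294, 282 and 344 at 48 h of INC424 (log2 -0.82 ± 0.15 (SE), adjusted p = 0.00012), while the 4 h libraries, at 432, 478 and 435, lay between. NFKBIB (IkBβ) ran from 883 to 1814 over all libraries and passed the test against neither naive cells nor DMSO.

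Of the feedback genes, TNFAIP3 and ZC3H12A were higher in some lines and TNIP1 lower. TNFAIP3 encodes A20, a ubiquitin-editing enzyme that shuts off signalling to IKK, and 3 lines held it at 2.94 to 4.64 times the naive level. It was 151, 121 and 108 in naive cells, 437, 369 and 409.6 in the BMS911543 line, 617 and 556 in CYT387 libraries 1 and 3, and 338, 396 and 382 in the INC424 line. All libraries of these 3 lines lay above all naive libraries. The SAR302503 line, at 80.6, 112 and 124, overlapped them. The differences from naive cells were log2 1.68 ± 0.17 (SE), adjusted p = 4.3e-08 for BMS911543, log2 2.21 ± 0.20 (SE), adjusted p = 9.6e-09 for CYT387 and log2 1.56 ± 0.17 (SE), adjusted p = 1.6e-07 for INC424. For SAR302503 the difference was log2 -0.27, with a 95% interval of -0.64 to 0.10. CYT387 library 2 was at 1792, above libraries 1 and 3. With it in the fit, the CYT387 difference was 2.75, the BMS911543 and INC424 line calls still passed, and the 48 h call below did not (adjusted p = 0.078). SAR302503 was lower than each of the other lines in the direct contrasts, by 2.48 for CYT387 minus SAR302503 (adjusted p = 8.4e-10). Short exposure to INC424 moved TNFAIP3 less: it was 96.1, 115 and 89.4 with DMSO, 129.8, 117 and 136 at 4 h (adjusted p = 0.19) and 159, 157 and 164 at 48 h (log2 0.68 ± 0.17 (SE), adjusted p = 0.0027).

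ZC3H12A (Regnase-1), an RNase that degrades inflammatory transcripts, was 139, 266 and 288 in naive cells, 375 and 387 in CYT387 libraries 1 and 3 (log2 0.79 ± 0.26 (SE), adjusted p = 0.038) and 347, 301 and 374 in the INC424 line (log2 0.62 ± 0.23 (SE), adjusted p = 0.044). Naive library 1 was well below the other 2. The call was lost for CYT387 without library 1 or 3 of CYT387 or library 1 of naive cells (adjusted p = 0.149, 0.171 and 0.203), and for INC424 without library 1 or 3 of the INC424 line or library 1 of naive cells (adjusted p = 0.0994, 0.132 and 0.328). TNIP1 (ABIN-1), which helps A20, went the other way in 3 lines. It was 3208, 2619 and 2670.1 in naive cells, 1932, 1946 and 1980.1 in the BMS911543 line (log2 -0.53 ± 0.11 (SE), adjusted p = 0.0007), 2181, 1806 and 2297 in the INC424 line (log2 -0.44 ± 0.11 (SE), adjusted p = 0.0041) and 2214, 1836 and 2554 in the SAR302503 line (log2 -0.37 ± 0.11 (SE), adjusted p = 0.015). All 9 of these libraries lay below the lowest naive library. The SAR302503 call was lost without library 2 of SAR302503 or library 1 of naive cells (adjusted p = 0.101 and 0.0801). CYT387 libraries 1 and 3 held 2779 and 2906, within the naive range, and library 2 held 7738. With library 2 in the fit none of the 3 calls passed (adjusted p = 0.11, 0.21 and 0.31). After INC424, TNIP1 was above DMSO: 1539, 1459 and 1712 with DMSO, 2382, 2329 and 2153 at 4 h (log2 0.55 ± 0.11 (SE), adjusted p = 0.0014) and 2352, 2454 and 2353 at 48 h (log2 0.61 ± 0.11 (SE), adjusted p = 0.00012). DMSO itself was below naive cells (log2 -0.85), and the INC424 libraries remained below every naive library. TNIP2 (ABIN-2), at 359 to 718 over all libraries, passed no test against naive cells or DMSO.

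**Figure D2:**
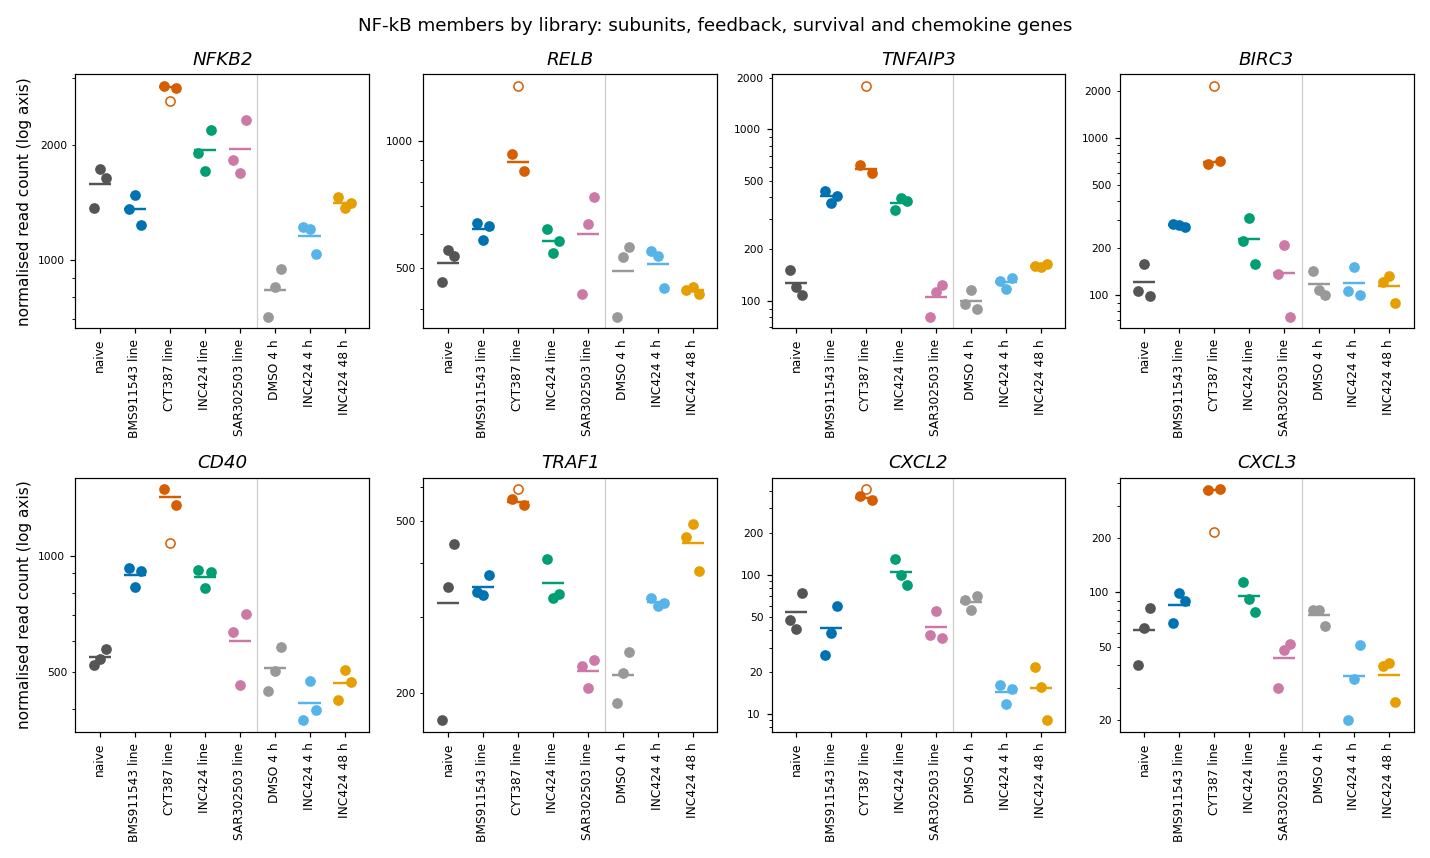
Normalized count (log axis) in each of the 24 libraries for members that were higher in persistent lines, by group; the open symbol is CYT387 library 2 and each bar is the group mean without it. TNFAIP3 lies at 338 or more in every BMS911543, CYT387 and INC424 line library, and at 151 or less in every naive and SAR302503 library.

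Among the signalling and survival genes, BIRC3 rose and CFLAR fell. BIRC3 encodes cIAP2, a ligase that protects TNF receptor complexes and restrains NIK. It was 107, 159 and 98.9 in naive cells, 283, 279.9 and 273 in the BMS911543 line, 688 and 712 in CYT387 libraries 1 and 3, and 222, 309 and 158 in the INC424 line. The CYT387 difference was log2 2.55 ± 0.33 (SE), adjusted p = 4.2e-06, a 5.86-fold change, and the BMS911543 difference was log2 1.22 ± 0.29 (SE), adjusted p = 0.0021. Both lines lay clear of naive cells. INC424 library 3 lay just under the highest naive library, and the call for that line (log2 0.89 ± 0.29 (SE), adjusted p = 0.022) was lost without library 1 or 2 of the INC424 line or library 1 or 3 of naive cells (adjusted p = 0.0533, 0.127, 0.0672 and 0.0886). The SAR302503 line, at 136, 209.7 and 73.1, overlapped naive cells. CYT387 library 2 held 2154, and with it the CYT387 difference was 3.09. BIRC3 did not pass the test with INC424 for 4 h or 48 h (log2 0.02 and -0.04). The related BIRC2 (cIAP1) was 1531, 1215 and 1246 in naive cells and 2003, 2031 and 1295 in the SAR302503 line (log2 0.39 ± 0.15 (SE), adjusted p = 0.046), where library 3 overlapped naive cells and the call was lost without library 1 or 2 of SAR302503 or library 2 or 3 of naive cells (adjusted p = 0.193, 0.185, 0.149 and 0.132).

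CFLAR encodes c-FLIP, the inhibitor of caspase-8 that keeps death receptors from killing the cell. It was 8786, 7620.1 and 8254 in naive cells, 2633, 2652 and 2458 in the BMS911543 line and 2613, 2263 and 2459 in the INC424 line. These lines had 3.18-fold and 3.36-fold less than naive cells (log2 -1.67 ± 0.09 (SE), adjusted p = 2.8e-13, and log2 -1.75 ± 0.09 (SE), adjusted p = 1.1e-13). The falls in CYT387 libraries 1 and 3, at 6148 and 5867 (log2 -0.45 ± 0.10 (SE), adjusted p = 0.002), and in the SAR302503 line, at 7382, 6775 and 6522 (log2 -0.25 ± 0.09 (SE), adjusted p = 0.032), were smaller. BMS911543 was below CYT387 (log2 -1.22, adjusted p = 1.2e-09) and below SAR302503 (log2 -1.42, adjusted p = 8.6e-12) in the direct contrasts. CYT387 library 2 held 3266. The SAR302503 call was lost without library 2 or 3 of SAR302503 or library 1 or 3 of naive cells (adjusted p = 0.0628, 0.071, 0.102 and 0.0724), and with library 2 of CYT387 in the fit (adjusted p = 0.29). DMSO libraries held 4095, 4571 and 4110.2, below every naive library (log2 -0.95, adjusted p = 1.3e-08). INC424 lowered CFLAR further at 4 h, to 3135, 3072 and 3199.6 (log2 -0.44 ± 0.09 (SE), adjusted p = 0.001). At 48 h, 3191, 3705 and 3703 was also below DMSO (log2 -0.27 ± 0.09 (SE), adjusted p = 0.015), a call lost without library 2 of DMSO or library 1 of INC424 at 48 h (adjusted p = 0.0849 and 0.106).

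TRAF3, an adaptor that brings NIK to its degradation, was 1321, 1627 and 1751 in naive cells, 2701 and 2692 in CYT387 libraries 1 and 3 (log2 0.79 ± 0.11 (SE), adjusted p = 9.8e-06), 2497 in library 2 and 1902, 1904 and 2057 in the SAR302503 line (log2 0.33 ± 0.10 (SE), adjusted p = 0.013). The SAR302503 call was lost without library 1 of naive cells (adjusted p = 0.0837). TRAF3 was lower with INC424 than with DMSO. It was 2727, 2997 and 3263 with DMSO and 2046, 2145 and 2209.6 at 4 h (log2 -0.49 ± 0.10 (SE), adjusted p = 0.001). At 48 h it was 1545, 1622 and 1531 (log2 -0.93 ± 0.10 (SE), adjusted p = 5e-08), and the 3 groups did not overlap. DMSO libraries were far above naive cells (log2 0.94), and at 48 h TRAF3 lay within the naive range. TRAF2, its partner, was 696, 931 and 1023 in naive cells and 1387, 1173 and 1303 in the INC424 line (log2 0.56 ± 0.15 (SE), adjusted p = 0.0068). The SAR302503 line held 1172, 898 and 1602 (log2 0.45 ± 0.15 (SE), adjusted p = 0.03) and overlapped naive cells. Those calls were lost without library 1 of naive cells (adjusted p = 0.0573) for INC424, and without library 1 or 3 of SAR302503 or library 1 of naive cells (adjusted p = 0.0576, 0.195 and 0.176) for SAR302503.

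TRAF1, an NF-kB-induced adaptor that binds TRAF2 and the cIAPs, was 173, 352 and 443 in naive cells and 561 and 545 in CYT387 libraries 1 and 3 (log2 0.88 ± 0.24 (SE), adjusted p = 0.012), with 592 in library 2. Its call was lost without library 1 or 3 of CYT387 or library 1 of naive cells (adjusted p = 0.0908, 0.0724 and 0.0561). It was 189.7, 223 and 249.9 with DMSO, 332, 318 and 324 at 4 h of INC424 (adjusted p = 0.081) and 459, 493 and 385 at 48 h (log2 1.01 ± 0.22 (SE), adjusted p = 0.00052). The 48 h libraries all lay above DMSO. MAP3K8 (TPL2), the kinase that p105 holds inactive, was 70.8, 83.8 and 78.3 with DMSO, 126, 112 and 138 at 4 h (log2 0.68 ± 0.19 (SE), adjusted p = 0.016) and 204, 207 and 193 at 48 h (log2 1.37 ± 0.19 (SE), adjusted p = 4e-06). The 3 groups stood in that order without overlap, and 48 h against 4 h was log2 0.68, adjusted p = 0.011. The 4 h call was lost without library 1 of DMSO or library 3 of INC424 at 4 h (adjusted p = 0.0711 and 0.0732), and that of 48 h against 4 h without library 2 of INC424 at 4 h (adjusted p = 0.0545). Naive cells held 129, 168 and 209.9 and the SAR302503 line 317, 249 and 232 (log2 0.66 ± 0.19 (SE), adjusted p = 0.011), a call lost without library 1 of SAR302503 or library 1 of naive cells (adjusted p = 0.0668 and 0.0697).

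RIPK2, the kinase downstream of the NOD receptors, was 703, 542 and 448 in naive cells and 706, 841 and 756 in the SAR302503 line (log2 0.46 ± 0.13 (SE), adjusted p = 0.011), a call lost without library 3 of naive cells (adjusted p = 0.0949). GADD45B, a stress protein that limits JNK signalling, had low counts, with 20.0 to 89.5 in the 23 libraries fitted and 509 in CYT387 library 2. It was lower in the BMS911543 line (log2 -0.99) and at 4 h of INC424 (log2 -1.26). The first call was lost without library 1 or 2 of BMS911543 or library 3 of naive cells (adjusted p = 0.0656, 0.0677 and 0.117), and the second without library 1 of DMSO or library 3 of INC424 at 4 h (adjusted p = 0.0558 and 0.0571).

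The chemokines CXCL1, CXCL2 and CXCL3 draw neutrophils through the receptor CXCR2, and the last 2 had their highest levels in the CYT387 line. CXCL2 was 46.9, 41.0 and 74.4 in naive cells, 366 and 342 in CYT387 libraries 1 and 3 and 130.4, 98.8 and 84.8 in the INC424 line. CXCL3 was 39.9, 63.6 and 82.5 in naive cells, 365 and 369 in CYT387 libraries 1 and 3 and 115, 92.0 and 78.4 in the INC424 line. The CYT387 differences were log2 2.73 ± 0.38 (SE), adjusted p = 9.8e-06, for CXCL2 and log2 2.61 ± 0.36 (SE), adjusted p = 1.2e-05, for CXCL3, which are 6.66-fold and 6.09-fold. CYT387 library 2, at 411 and 216, was also above all naive libraries. The BMS911543 line (26.4, 38.3 and 59.97 for CXCL2, 67.5, 98.7 and 89.4 for CXCL3) and the SAR302503 line (36.8, 54.6 and 35.2 for CXCL2, 29.9, 48.3 and 52.0 for CXCL3) overlapped naive cells. For CXCL2 the INC424 line passed (log2 0.96 ± 0.34 (SE), adjusted p = 0.03), a call lost without library 1 or 2 of the INC424 line or library 1 or 2 of naive cells (adjusted p = 0.126, 0.0547, 0.0811 and 0.119). For CXCL3 it did not (log2 0.65, adjusted p = 0.13). CXCL1 had few reads: 0, 6.47 and 1.02 in naive cells, 20.1 and 25.5 in CYT387 libraries 1 and 3, and 925 in library 2. CXCL1 also entered the fit only through persistent lines, with 6 of the 23 libraries at 10 or more, so its test is not used here, although it is 1 of the higher members counted above for CYT387.

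The same pair was lower in naive cells given INC424 than in those given DMSO. CXCL2 went from 65.9, 55.9 and 70.4 with DMSO to 16.2, 11.7 and 15.03 at 4 h (log2 -2.09 ± 0.34 (SE), adjusted p = 0.0001) and 21.6, 15.5 and 9.01 at 48 h (log2 -2.06 ± 0.34 (SE), adjusted p = 2.5e-05). CXCL3 went from 79.8, 80.5 and 65.6 to 19.8, 33.4 and 51.1 at 4 h (log2 -1.19 ± 0.32 (SE), adjusted p = 0.013) and 39.4, 40.8 and 25.03 at 48 h (log2 -1.11 ± 0.32 (SE), adjusted p = 0.0074). All INC424 libraries lay below all DMSO libraries for both. The CXCL3 call was lost at 4 h without library 1 of INC424 at 4 h (adjusted p = 0.0997) and at 48 h without library 3 of INC424 at 48 h (adjusted p = 0.0511). In the INC424 line, which is grown in the same inhibitor, CXCL2 was 6.7-fold and CXCL3 2.69-fold above the 48 h libraries (adjusted p = 5.1e-07 and 0.001).

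IL1B, the secreted inflammatory cytokine IL-1β, fell in 3 lines. It was 8959, 7195 and 6992 in naive cells, 3205, 3089.6 and 3229 in the BMS911543 line (log2 -1.27 ± 0.09 (SE), adjusted p = 1.4e-10), 2845, 2882 and 3300.1 in the INC424 line (log2 -1.35 ± 0.09 (SE), adjusted p = 4.3e-11) and 4132, 3816 and 3869 in the SAR302503 line (log2 -0.96 ± 0.09 (SE), adjusted p = 2.9e-08). CYT387 libraries 1 and 3, at 7236 and 6902, lay within or beside the naive range, while library 2 held 1804. With DMSO, IL1B was 3046, 3014 and 3114, far below naive cells (log2 -1.33, adjusted p = 1.9e-10). It was 2958, 3014 and 3540.3 at 4 h of INC424, overlapping DMSO, and 5388, 5518 and 5419 at 48 h (log2 0.83 ± 0.09 (SE), adjusted p = 1.7e-07). So the 48 h libraries were above DMSO and below naive cells.

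LTA (lymphotoxin-α), a ligand of the TNF family, was nearly absent from naive cells, with 2 reads in the 3 libraries together. It was 46.5, 17.0 and 22.2 in the INC424 line, 14.97, 35.6 and 38.7 in the SAR302503 line and 21.9, 5.03 and 3.05 in the BMS911543 line. The pooled ratio of reads to naive cells was 37.0 (95% counting interval 9.96 to 311) for INC424, 42.1 (11.3 to 353) for SAR302503 and 14.4 (3.67 to 124) for BMS911543, which cover counting error only. In CYT387 libraries 1 and 3 it was 0 and 12.8. LTA reached 10 in 8 libraries, all of persistent lines, so it entered the fit only through groups where it is high, and its test is not used here. It is 1 of the higher members counted above for the INC424, SAR302503 and BMS911543 lines, and with CYT387 library 2 in the fit it is not counted for BMS911543. TNF was low everywhere, at most 35.2 outside CYT387 library 2 (82.9). It was 17.1, 10.7 and 8.70 with DMSO and 0.902, 0.902 and 0 at 4 h of INC424, a pooled ratio of DMSO to INC424 of 19.5 (5.09 to 166), with adjusted p = 0.022. That call was lost without library 1 or 2 of DMSO or library 3 of INC424 at 4 h (adjusted p = 0.085, 0.0533 and 0.086). TNF was also called in the SAR302503 line (6.91, 8.89 and 35.2, against 1.17, 0 and 7.13 in naive cells, adjusted p = 0.044), where it overlapped naive cells and was lost without library 2 or 3 of SAR302503 or library 1 or 2 of naive cells (adjusted p = 0.0507, 0.174, 0.0967 and 0.198). SAR302503 library 3, which held the highest TNF of the 3, is the one with the most squamous RNA, and the part of that RNA was not tested. LTB ran from 2.54 to 21.4 and EBI3 from 0 to 20.3 in the 23 libraries, and neither passed a test. CCL2 and CCL3 stayed under 10 in those 23 libraries and were at 82.9 and 60.6 in CYT387 library 2.

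The surface genes moved in different directions. ICAM1, the adhesion molecule that binds leukocyte integrins, was 1898, 2063 and 1978 in naive cells and lower in 3 lines: 849.8, 777 and 964 in BMS911543, 831, 793 and 942 in INC424 and 1172 and 1081 in CYT387 libraries 1 and 3. No library of these overlapped naive cells. The differences were log2 -1.20 ± 0.13 (SE), adjusted p = 8.5e-08, for BMS911543, log2 -1.21 ± 0.13 (SE), adjusted p = 7.5e-08, for INC424 and log2 -0.81 ± 0.15 (SE), adjusted p = 0.00025, for CYT387. CYT387 library 2 held 2004, in the naive range, and with it the CYT387 difference was -0.54 (adjusted p = 0.036). The SAR302503 line, at 1901, 1849 and 2771, overlapped naive cells. ICAM1 was 1026, 1230.4 and 1206 with DMSO, 616, 689 and 672 at 4 h of INC424 (log2 -0.80 ± 0.13 (SE), adjusted p = 0.00011) and 563, 546 and 599.8 at 48 h (log2 -1.01 ± 0.13 (SE), adjusted p = 9.9e-07), all below the DMSO libraries.

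CD40, the receptor for CD40 ligand and an activator of both NF-kB pathways, was 520.4, 540.2 and 573 in naive cells. It was 930.1, 829 and 915 in the BMS911543 line, 1487 and 1349 in CYT387 libraries 1 and 3, 1078 in library 2 and 916, 824 and 905 in the INC424 line. The lines lay wholly above naive cells, by log2 0.71 ± 0.14 (SE), adjusted p = 0.00032, for BMS911543, log2 1.38 ± 0.16 (SE), adjusted p = 6.1e-07, for CYT387 and log2 0.69 ± 0.14 (SE), adjusted p = 0.00041, for INC424. The SAR302503 line overlapped naive cells, at 632, 461 and 705. CD40 did not pass the test with INC424 for 4 h or 48 h (log2 -0.30 and -0.13).

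CD83, a marker of activated antigen-presenting cells, was 253, 188 and 217 in naive cells, 405, 289 and 381 in the BMS911543 line (log2 0.70 ± 0.15 (SE), adjusted p = 0.00079) and 443, 475 and 459 in the INC424 line (log2 1.07 ± 0.15 (SE), adjusted p = 5e-06). The CYT387 libraries 1 and 3 (242 and 213) and the SAR302503 line (242, 268 and 288) overlapped naive cells, and CYT387 library 2 held 789.9. With that library in the fit, the BMS911543 call did not pass (adjusted p = 0.098). CD83 was lower with INC424 than with DMSO. It was 385, 402 and 357 with DMSO, 172, 211 and 172 at 4 h (log2 -1.04 ± 0.15 (SE), adjusted p = 3e-05) and 233, 218 and 246 at 48 h (log2 -0.71 ± 0.15 (SE), adjusted p = 0.00048). The values at 4 h and 48 h overlapped naive cells, and DMSO was above naive cells (log2 0.81). TNFRSF9 (4-1BB), a costimulatory receptor, had 2.91 to 48.1 over all libraries. It was lower in the BMS911543 and SAR302503 lines (log2 -2.42 and -2.32) and at 48 h of INC424 (log2 -1.37), a call lost without library 1 or 3 of DMSO or library 1 or 2 of INC424 at 48 h (adjusted p = 0.115, 0.0927, 0.0908 and 0.206).

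**Figure D3:**
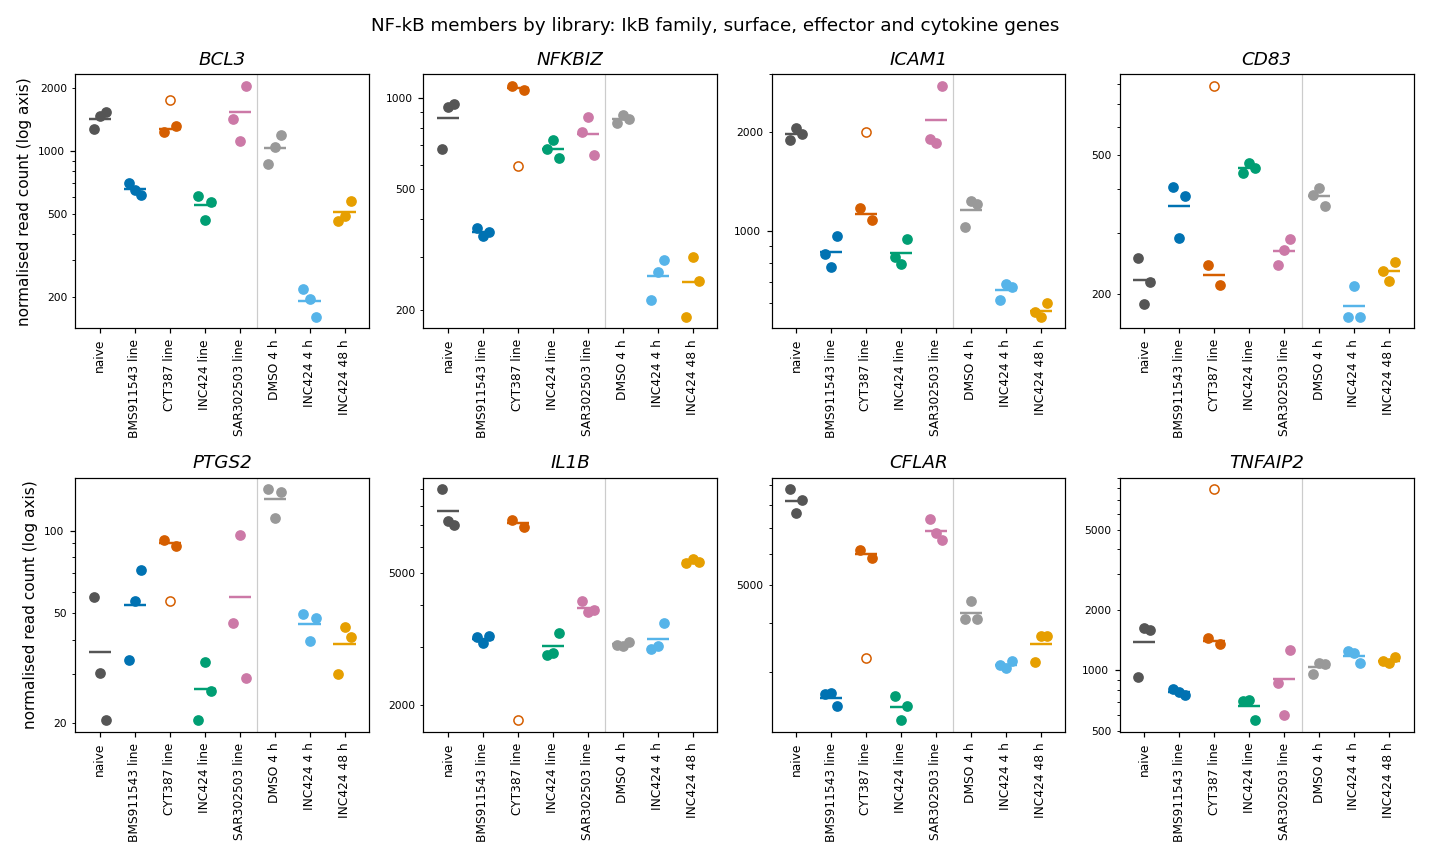
Normalized count (log axis) in each of the 24 libraries for BCL3, NFKBIZ, ICAM1, CD83, PTGS2, IL1B, CFLAR and TNFAIP2, by group; the open symbol is CYT387 library 2 and each bar is the group mean without it. BCL3 and NFKBIZ lie at 299.9 or less in every 4 h INC424 library and, for NFKBIZ, in every 48 h library, while every DMSO library is at 830.3 or more.

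Of the effectors, SOD2, the mitochondrial superoxide dismutase, differed between lines in sign. It was 3714, 2991 and 2946 in naive cells, 2368 and 2426 in CYT387 libraries 1 and 3 (log2 -0.42 ± 0.10 (SE), adjusted p = 0.0058) and 4140.0, 4383 and 3752 in the SAR302503 line (log2 0.35 ± 0.09 (SE), adjusted p = 0.0053). The CYT387 call was lost without library 1 of CYT387 (adjusted p = 0.0657). CYT387 library 2 held 10139, and with it the CYT387 difference turned to 0.28 and neither line passed (adjusted p = 0.54 and 0.48). PLAU, the urokinase protease, was 298, 384 and 305 in naive cells, 144, 126 and 144 in the BMS911543 line (log2 -1.24 ± 0.31 (SE), adjusted p = 0.0029) and 79.4, 308 and 141 in the INC424 line (log2 -1.11 ± 0.31 (SE), adjusted p = 0.0073). INC424 line library 2 overlapped naive cells, and that call was lost without library 1 of the INC424 line (adjusted p = 0.0884). The SAR302503 line held 163, 212 and 244, CYT387 libraries 1 and 3 221 and 149, and library 2 773.

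TNFAIP2, a gene that TNF induces in endothelial and myeloid cells, was 929, 1615 and 1579.6 in naive cells, 812, 782 and 753 in the BMS911543 line (log2 -0.77 ± 0.19 (SE), adjusted p = 0.0032), 704, 714 and 565 in the INC424 line (log2 -1.02 ± 0.19 (SE), adjusted p = 0.00022) and 869, 602 and 1258 in the SAR302503 line (log2 -0.62 ± 0.19 (SE), adjusted p = 0.019). The SAR302503 libraries overlapped naive cells, and their call was lost without library 2 of SAR302503 or library 2 or 3 of naive cells (adjusted p = 0.149, 0.104 and 0.0983). CYT387 libraries 1 and 3 held 1442 and 1350.5 and library 2 7928. With library 2 in the fit none of the 3 calls passed (adjusted p = 0.19, 0.082 and 0.33). PTGS2, which encodes cyclooxygenase-2, was 142, 112 and 138 with DMSO, 49.6, 39.7 and 48.1 at 4 h of INC424 (log2 -1.49 ± 0.39 (SE), adjusted p = 0.0087) and 30.0, 44.6 and 41.1 at 48 h (log2 -1.74 ± 0.39 (SE), adjusted p = 0.00071). No INC424 library reached the DMSO range. Naive cells held 57.4, 30.2 and 20.4, so the DMSO libraries were above them (log2 1.95, adjusted p = 0.00033). In the CYT387 line, libraries 1 and 3, at 92.4 and 88.2, were above naive cells (log2 1.43 ± 0.43 (SE), adjusted p = 0.022), a call lost without library 1 or 3 of CYT387 or library 2 or 3 of naive cells (adjusted p = 0.128, 0.104, 0.0546 and 0.1), and library 2 was at 55.3.

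Comparing the 4 lines with each other asks whether the members differ between lines. Each inhibitor is represented by 1 persistent line, so the inhibitor and the history of its line cannot be told apart. The F-test of any difference passed in 29 of 39 members, where 54.8% of all genes passed. The 29 include LTA and CXCL1, whose tests are not used. The CYT387 line had the most members above another line. Against INC424 it had 17 higher and 3 lower (14.3% and 10.1% of all genes, 24.3% in all). Against SAR302503 it had 15 higher and 5 lower (14.0% and 12.8%, 26.8% in all), and against BMS911543 21 higher and 3 lower (17.3% and 13.3%, 30.6% in all). These counts include LTA among the lower members against INC424 and SAR302503, and CXCL1 among the higher members against BMS911543. The median member difference was 0.55 for CYT387 minus INC424, 0.38 for CYT387 minus SAR302503 and -0.65 for BMS911543 minus CYT387. The medians of all genes in these contrasts were -0.02, 0.03 and 0.00. The fewest calls were between BMS911543 and INC424: 6 members passed, each lower in BMS911543, where 14.2% of all genes were lower (27.3% called in all), and the median was -0.09. BMS911543 had 6 members higher and 11 lower than SAR302503 (17.8% and 20.3% of all genes, 38.1% in all), and INC424 had 7 higher and 7 lower than SAR302503 (10.7% and 12.0%, 22.7% in all). Among members that passed the F-test, the widest gaps between the highest and the lowest line were in CXCL1, CXCL2 and CXCL3, then LTA, TNFAIP3 and BIRC3. The gaps of CXCL1 and LTA are given as values only, since these genes entered the fit through the lines that hold them high. CYT387 minus SAR302503 was 3.09 ± 0.36 (SE) for CXCL3 and 2.44 ± 0.33 (SE) for BIRC3.

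The INC424 line can be set beside naive cells exposed to the same drug for 48 h. Between 4 h and 48 h, 3 members rose (BCL3, MAP3K8 and IL1B) and 2 fell (NFKBIE and TRAF3), where 12.8% of all genes rose and 12.7% fell (25.5% in all). With only these 2 groups in the fit, 13 members were called, 8 higher and 5 lower, and 43.7% of all genes. IL1B was log2 0.78, adjusted p = 1.6e-06, and TRAF3 was log2 -0.45, adjusted p = 0.0015. The NFKBIE call (log2 -0.55, adjusted p = 0.01) was lost without library 2 of INC424 at 48 h (adjusted p = 0.0509). The persistent INC424 line against 48 h had 14 members higher and 6 lower, where 19.7% and 21.0% of all genes were (40.6% in all), with a member median of 0.30 (-0.02 for all genes). Some members were below DMSO at 48 h and higher in the line than at 48 h. They included CXCL2 (log2 2.74, adjusted p = 5.1e-07), NFKBIZ (log2 1.48, adjusted p = 6.6e-08), CXCL3 (log2 1.43, adjusted p = 0.001), CD83 (log2 0.98, adjusted p = 1.4e-05) and ICAM1 (log2 0.58, adjusted p = 0.00086). CD83 at 48 h overlapped naive cells, and ICAM1 in the line stayed below every naive library. TNFAIP3 (log2 1.21, adjusted p = 5.5e-06), CD40 (log2 0.92, adjusted p = 1.1e-05), NFKBIA (log2 0.67, adjusted p = 0.0011) and BIRC3 (log2 0.97, adjusted p = 0.011) were higher in the line as well, the BIRC3 call being lost without library 3 of INC424 at 48 h or library 2 of the INC424 line (adjusted p = 0.0586 and 0.0768), and without the 4 libraries richest in squamous RNA (adjusted p = 0.101). Lower in the line were REL, IL1B, TNFAIP2, CFLAR, RIPK2 and PLAU, the last a call lost without library 2 of INC424 at 48 h or library 1 or 3 of the INC424 line (adjusted p = 0.0626, 0.223 and 0.0624). That of RIPK2 was lost without the 4 libraries richest in squamous RNA (adjusted p = 0.067). NFKB2, NFKBIB, ZC3H12A, SOD2 and LTA (whose test is not used) made up the rest of the higher ones. The call was lost for NFKB2 without library 3 of the INC424 line (adjusted p = 0.0595) and for NFKBIB without library 1 or 2 of INC424 at 48 h or library 1 or 3 of the INC424 line (adjusted p = 0.123, 0.12, 0.178 and 0.121). BCL3 did not pass (log2 0.10, 95% interval -0.27 to 0.47).

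**Figure D4:**
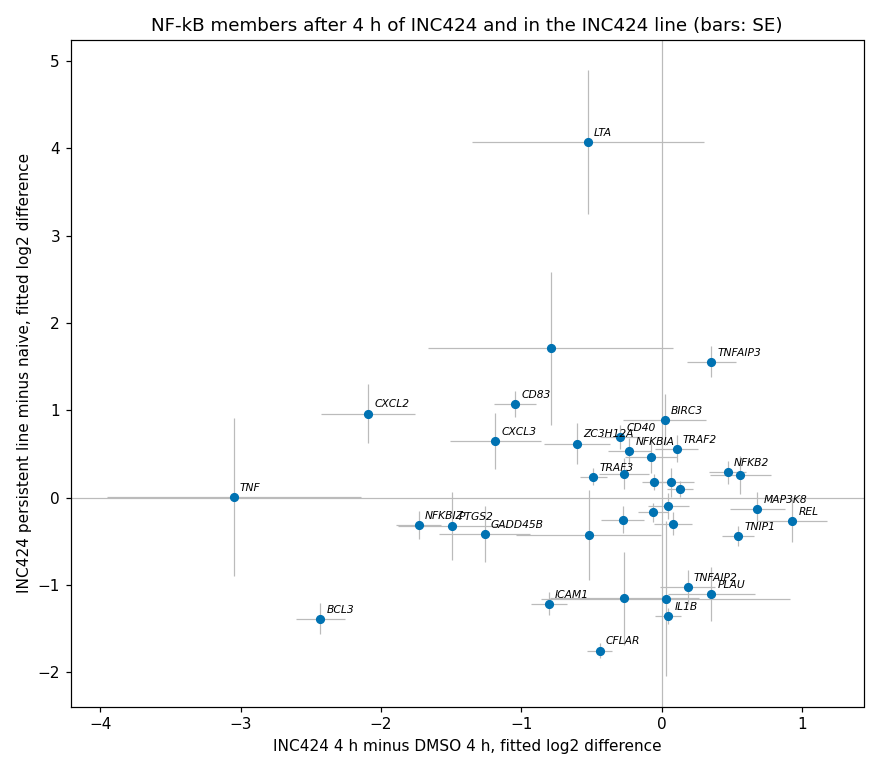
Log2 difference of each of the 39 tested members with 4 h of INC424 against DMSO (horizontal) and in the INC424 persistent line against naive cells (vertical); the comparisons share no library. Of the 39 points, 13 lie lower at 4 h and higher in the line, 10 lower in both, 7 higher in both and 9 higher at 4 h and lower in the line, with a Pearson r of -0.0176. The same split over all genes was not counted.

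Between the 4 h response to INC424 and the INC424 line, Pearson's r was -0.0176 and Spearman's rho -0.0646 across the 39 genes, which are not independent replicates. The 39 include LTA and CXCL1, whose tests are not used, and TNF, whose counts are low. The correlation over all genes was not computed, so these values are not read as particular to the members. BCL3, CFLAR and ICAM1 were called lower in both. CXCL2 and CD83 were called lower at 4 h and higher in the line. TNIP1 was called higher at 4 h and lower in the line.

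DMSO is the control of both exposures, and it differed from naive cells in 13 members: 4 were higher and 9 lower, where 17.3% and 20.4% of all genes were (37.8% in all). The lower ones were NFKB2, REL, BCL3, TNIP1, CFLAR, MAP3K8, IL1B, ICAM1 and PLAU, and the higher ones were TRAF2, TRAF3, CD83 and PTGS2. Calls lost without 1 library were REL without library 1 or 3 of DMSO or library 1 or 3 of naive cells (adjusted p = 0.0591, 0.177, 0.0745 and 0.0819), BCL3 without library 1 or 2 of DMSO or library 2 or 3 of naive cells (adjusted p = 0.173, 0.0718, 0.0924 and 0.112), PLAU without library 2 or 3 of DMSO or library 2 or 3 of naive cells (adjusted p = 0.188, 0.0566, 0.124 and 0.0608) and TRAF2 without library 2 or 3 of DMSO or library 1 of naive cells (adjusted p = 0.0774, 0.127 and 0.202). Set against naive cells instead of DMSO, the 48 h libraries gave 10 members called, 1 higher and 9 lower, where 15.2% of all genes were higher and 17.1% lower (32.3% in all). The differences of NFKB2, TNIP1, IL1B, CD83, TRAF3 and PTGS2 then had the opposite sign, at -0.15, -0.24, -0.49, 0.09, 0.01 and 0.20.

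Adding CYT387 library 2 to the fit left the log2 differences of comparisons without that line unchanged, but not the pooled spread. MAP3K14 in the INC424 line, for example, was log2 0.495 against naive cells in both fits. Its SE was 0.181 without that library and 0.312 with it. Some calls did not pass once CYT387 library 2 was in the fit, and they are given here with their adjusted p in that fit. For the BMS911543 line they were TNIP1 (0.11), GADD45B (0.24), CD83 (0.098) and TNFAIP2 (0.19). For the CYT387 line it was SOD2 (0.54). For the INC424 line they were NFKBIA (0.3), TNIP1 (0.21), ZC3H12A (0.098), BIRC3 (0.1), CXCL2 (0.05004), PLAU (0.075) and TNFAIP2 (0.082). For the SAR302503 line they were TNIP1 (0.31), BIRC2 (0.078), CFLAR (0.29), TRAF2 (0.084), TNF (0.084), SOD2 (0.48) and TNFAIP2 (0.33). For INC424 at 4 h they were TNIP1 (0.19), CFLAR (0.093), MAP3K8 (0.052), GADD45B (0.22) and TNF (0.055). For INC424 at 48 h they were TNFAIP3 (0.078), TNIP1 (0.054), CFLAR (0.2), CD83 (0.074) and TNFRSF9 (0.078). For 48 h against 4 h it was IL1B (0.085). For the INC424 line against 48 h they were NFKBIA (0.16), NFKBIB (0.071), BIRC3 (0.06), SOD2 (0.44), PLAU (0.13) and TNFAIP2 (0.18). For DMSO against naive cells they were REL (0.074), BCL3 (0.076), TRAF2 (0.086), CD83 (0.053) and PLAU (0.18).

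The pathway's other genes were taken as a list of 62 receptors, ligands, kinases, adaptors and further targets, of which 61 are in the table and 55 passed the filter. In the lines, 6 of 55 were higher and 15 lower with BMS911543, 4 and 10 with CYT387, 6 and 19 with INC424, and 7 and 12 with SAR302503. At 4 h of INC424 3 were higher and 9 lower, and at 48 h 9 and 18. The share called was 38.2% for BMS911543 against 35.4% of all genes, 25.5% against 18.3% for CYT387, 45.5% against 33.3% for INC424 and 34.5% against 30.6% for SAR302503. It was 21.8% against 16.7% at 4 h and 49.1% against 44.5% at 48 h.

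TNFSF10 (TRAIL), a death ligand, was lower in all 4 lines. It was 1331, 899 and 1024 in naive cells, 105, 111 and 73.2 in BMS911543 (log2 -3.48), 342 and 328 in CYT387 libraries 1 and 3 (log2 -1.67), 83.9, 107 and 46.0 in INC424 (log2 -3.83) and 378, 602 and 347 in SAR302503 (log2 -1.32). CYT387 library 2 held 3475, and with it the CYT387 difference was -0.55 and did not pass, nor did the SAR302503 call (adjusted p = 0.1). DMSO libraries were also lower than naive cells (log2 -1.86). IL1R1, the receptor for IL-1, was among the genes higher in CYT387, at 187 and 93.5 in libraries 1 and 3 against 17.6, 19.4 and 10.2 in naive cells (log2 3.04, adjusted p = 0.0013), and was lower in the INC424 line (log2 -2.53). CCR7, a homing receptor, was also higher in the CYT387 line (log2 2.40, adjusted p = 2.4e-05). With INC424 it was lower than with DMSO at 4 h (log2 -1.28) and 48 h (log2 -3.08). DMSO itself was above naive cells in CCR7 (log2 2.31), and the BMS911543 line was below them (log2 -0.84), a call that did not pass with CYT387 library 2 (adjusted p = 0.078). CD44, an adhesion receptor, was lower in all 4 lines: INC424 (log2 -2.74), SAR302503 (log2 -1.61), BMS911543 (log2 -1.23) and CYT387 (log2 -0.67). IL1RAP, the accessory chain of the IL-1 receptor, was lower in BMS911543 (log2 -1.98, adjusted p = 2.5e-10), in the INC424 line (log2 -1.05, adjusted p = 6.5e-06) and at 48 h of INC424 against DMSO (log2 -0.89, adjusted p = 4.2e-05). CXCL8, the chemokine IL-8, was lower in SAR302503 (log2 -2.86, adjusted p = 3.3e-05). NIK's gene MAP3K14 was higher in the INC424 line (log2 0.49, adjusted p = 0.038), where it overlapped naive cells, and did not pass with CYT387 library 2 in the fit (adjusted p = 0.29).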

How the data were processed

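Poly(A) RNA of 24 SET2 libraries (8 groups of 3) was sequenced on an Ion Proton, per the labels' protocols. The authors deposited 1 table of normalized counts, a signal per gene and library. BWA 0.7.5.1, HTSeq 0.5.3p3, DESeq 1.10.1, hg19 and GRCh37 are named in the submitters' processing notes. Whether counting used strand is not given in the sources used here, so reads of overlapping or antisense genes cannot be told apart. All values in each column were whole multiples of 1 step (100%, tolerance 0.01), which gave reads; in 3 libraries the step was near 1. No column was left unused (0).

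The main test was limma 3.58.1 (R 4.3.3, empirical Bayes with trend) on log2(value + 1), 23 libraries in 1 fit, genes at 10 or more in at least 3 libraries, Benjamini-Hochberg at 0.05. edgeR 4.0.16 and DESeq2 1.42.0 on the recovered reads were alternatives. edgeR called 17 members in the BMS911543 line, 15 in CYT387, 16 in INC424 and 13 in SAR302503, and 6918, 3514, 6519 and 6077 genes in all. A member got its value per library where it was called in a line or with INC424 at a mean of at least 50; other pathway genes were named by size, at most 3 each way. Some genes that this rule names are not reported here. Members and lists were chosen with earlier results of these data known. Replicate numbers did not pair the libraries.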

Additional observations from a re-analysis of the deposited data

Results flagged for a closer look

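Of the 39 members tested, 29 differed among the 4 persistent lines by the F-test, where 54.8% of all genes did. The gap between the highest and the lowest line, in log2 units, was 3.26 for CXCL1, 3.14 for CXCL2, 3.09 for CXCL3, 2.94 for LTA, 2.48 for TNFAIP3 and 2.44 for BIRC3. LTA and CXCL1 entered the fit only through lines where they are high, so their tests are not used, although both are among the 29. SOD2, with a gap of 0.77, was the member called higher in one line (SAR302503) and lower in another (CYT387). 

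Library 2 of the CYT387 line, which entered no fit of the main comparisons, held 14 members at more than 2 times the highest of the other 23 libraries. The share of all genes that did so was not counted. For the members, its normalized counts follow. Its normalized counts were 4184 for NFKBIA, 1792 for TNFAIP3, 7738 for TNIP1, 2154 for BIRC3, 509 for GADD45B, 82.9 for TNF, 204 for LTB, 82.9 for CCL2 and 60.6 for CCL3. They were 925 for CXCL1, 136 for EBI3, 10139 for SOD2, 773 for PLAU and 7928 for TNFAIP2. Squamous genes took 0.448% of its reads, stroma, vessel and macrophage genes 0.768%, and genes of SET2 cells 0.251%, against 0.382% to 0.692% for the last in the other libraries. Their part in the members' values was not tested.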

How the results depend on the processing

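Over 17 alternatives and the fits without 1 library, 214 counts of members stayed within 1.5 times those reported and 11 did not. With all 24 libraries, calls were 9 for the INC424 line (22.5% of all genes), 7 for SAR302503 (19.3%) and 8 for DMSO against naive cells (26.0%), and SOD2 in CYT387 turned to 0.28. With libraries not run again, they were 9 for SAR302503, 3 for 4 h and 3 for 48 h against 4 h. That fit leaves SAR302503, DMSO and 4 h of INC424 with 1 library each, assumed to vary like the other groups. Its counts are not read as particular to the members. With the compared groups alone, they were 3 for SAR302503 and 13 for 48 h against 4 h. With naive cells as the control, 48 h had 10 (32.3% of all genes), and NFKB2 (-0.15), TNIP1 (-0.24), TRAF3 (0.0093), IL1B (-0.49), CD83 (0.0925) and PTGS2 (0.20) had the opposite sign. With all 24 libraries, comparisons without the CYT387 line kept their log2 differences, while the pooled spread and the genes tested changed. The cause of the other changes was not tested.

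Leaving out 1 library gave 15 to 18 members for BMS911543, 10 to 15 for CYT387 (10 without its library 1, which leaves it 1 library), 12 to 17 for INC424, 9 to 12 for SAR302503 (9 without naive library 1), 11 to 15 at 4 h, 16 to 17 at 48 h, 4 to 6 for 48 h against 4 h, 17 to 20 for the INC424 line against 48 h, 10 to 13 for DMSO and 23 to 33 among lines. Over all genes, these fits called 5817 to 6536 for BMS911543 (7044 in the main fit), 5432 to 6144 for INC424 (6612) and 4994 to 6889 for SAR302503 (6090). At 4 h they called 2293 to 2613 (3316), at 48 h 7615 to 7967 (8851) and for 48 h against 4 h 3650 to 4374 (5073). They called 6862 to 7257 for the INC424 line against 48 h (8076) and 6246 to 7290 for DMSO (7506). The ranges for CYT387 and among lines include fits that leave CYT387 1 library. Their counts over all genes are not given, so these ranges are not read as particular to the members. Of single member results, 2676 kept their side of the threshold, 253 fell short of it and 7 reversed.

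The replicate numbers did not pair libraries: deviations of same-numbered libraries had a median correlation of -0.0153 (8 of 77 over 0.1), and 5 of 23 libraries correlated best with their own number. With the number as a block, calls were 17 for BMS911543, 16 for CYT387, 17 for the INC424 line, 13 for SAR302503, 15 at 4 h, 18 at 48 h, 5 for 48 h against 4 h, 20 for the INC424 line against 48 h, 13 for DMSO and 29 among lines. The calls over all genes with this block are not given here, so these counts are not read as particular to the members. LTA, TNF, CXCL1, TNFRSF9 and EBI3 rest on few reads, and depth limits what their values can show.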
